A study of Mus musculus with 6 samples.

Results

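The TNF receptor superfamily is a family of cell surface and secreted proteins that bind ligands of the tumour necrosis factor family. Here 9 of its genes were followed in RNA of isolated mouse glomeruli, the filtering units of the kidney. They were chosen by name, as Tnfrsf1a, Tnfrsf1b, Tnfrsf11a, Tnfrsf11b, Tnfrsf12a, Tnfrsf19, Tnfrsf21, Ltbr and Cd40. All 9 were found among the 57132 gene rows of the deposited count table, and all 9 passed the filter on low counts that left 19927 genes for testing. The study compared 3 samples labelled Cre-/Setdb2fl/fl DKD (Cre_negative) with 3 labelled Cre+/Setdb2fl/fl DKD (Cre_positive). Both genotypes carried floxed Setdb2 alleles, and both were labelled as diabetic kidney disease. The Cre recombinase, which removes floxed sequence, was the labelled difference, and the series title and design text name podocytes, the epithelial cells of the glomerular filter, as the cells of interest. The sources used here do not give the Cre driver, the diabetes model, or the strain, age and sex of the mice, nor do they state that the 3 samples of a genotype came from separate mice. The p-values therefore measure the spread between these samples, which may be technical in part.

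A ligand of this family binds as a trimer and draws receptor chains together. Receptors with a death domain, such as TNFR1 and DR6, can recruit adaptors that lead either to NF-kB activation or to caspase activation and cell death. Receptors without one recruit TRAF adaptors, which signal to NF-kB and to stress kinases. Soluble TNFR1 and TNFR2, shed from cells by proteases, are measured in blood as risk markers of declining function in diabetic kidney disease, and Fn14 is known as an injury-induced receptor of kidney tubule and glomerular cells.

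The libraries held between 53571438 and 58807042 counts. Podocyte markers were detected in every library, with a summed level of 518 to 810 CPM (counts scaled by library size and TMM factor) over 10 genes, and proximal tubule markers stood at 7680 to 12868 CPM over 9 genes, so tubule RNA was abundant beside glomerular RNA. A change in a gene that several of these cell types express cannot be assigned to one of them, and in these bulk samples fewer cells of a type and less RNA per cell cannot be told apart. Setdb2 itself had 370 to 591 counts in Cre_negative and 391 to 444 in Cre_positive libraries and did not pass the test (log2 fold change -0.12, SE 0.18, adjusted p = 0.738), so its counts do not check the genotype labels. Cre_positive replicate 2 stood apart from the others in Xist, the X-inactivation RNA of female cells, with 24 counts against 36474 to 47632.

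The upstream sequences of the 2 receptor genes that fell, Tnfrsf12a and Tnfrsf1a, are shown with that of Ltbr, which lies on the same chromosome as Tnfrsf1a and did not pass the test. Each line gives the 250 bases before the RefSeq transcription start on GRCm38.p6, 5′ to 3′ on the gene's own strand, with matches to the GC box GGGCGG, on either strand, in capitals.
Tnfrsf12a (chr17:23677450-23677699, minus strand): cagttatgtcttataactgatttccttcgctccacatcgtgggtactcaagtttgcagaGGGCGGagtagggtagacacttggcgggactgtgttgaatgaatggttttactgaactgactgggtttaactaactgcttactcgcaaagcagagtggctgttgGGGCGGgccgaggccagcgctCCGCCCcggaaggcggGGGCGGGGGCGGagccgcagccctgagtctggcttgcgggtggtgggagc
Tnfrsf1a (chr6:125349473-125349722, plus strand): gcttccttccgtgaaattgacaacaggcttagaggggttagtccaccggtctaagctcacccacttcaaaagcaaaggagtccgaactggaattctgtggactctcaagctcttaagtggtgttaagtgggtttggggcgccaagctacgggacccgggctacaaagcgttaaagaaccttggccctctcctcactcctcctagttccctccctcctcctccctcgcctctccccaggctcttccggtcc
Ltbr (chr6:125313886-125314135, minus strand): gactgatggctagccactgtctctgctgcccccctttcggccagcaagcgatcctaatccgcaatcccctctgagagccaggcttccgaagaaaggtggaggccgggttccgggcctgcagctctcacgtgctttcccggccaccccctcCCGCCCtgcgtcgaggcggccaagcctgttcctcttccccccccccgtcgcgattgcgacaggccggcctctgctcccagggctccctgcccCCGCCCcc
The Tnfrsf12a sequence held 5 GC boxes, of which 2 lie side by side, Ltbr held 2, and Tnfrsf1a held 0. RefSeq promoters were at hand for 7 of the 9 members, with 8 start sites, of which 6 held a GC box, against 32.7% of 32851 promoters. The GC box holds only G and C, and the windows of these sites were 50.0% to 73.6% G and C. The median over all promoters was 52.4%, and GC box counts were not compared at equal G and C content. None of the 8 held the 10-base NF-kB consensus, the AP-1 motif TGANTCA or the TATA box TATAAA, searched on both strands. These motifs were present in 3.90%, 6.75% and 12.4% of all promoters. These matches describe the letters in this window and nothing about factor binding.

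Of the 9 receptor genes, 2 fell in the Cre_positive libraries, 0 rose and 7 did not pass the quasi-likelihood test of edgeR at an adjusted p under 0.05. Among all genes tested, 7.55% passed in either direction, 3.82% as lower and 3.73% as higher. DESeq2 and limma voom also called 2 lower and 0 higher, and at an unadjusted p under 0.05 edgeR had 2 lower and 0 higher. The libraries of the 2 genotypes did not overlap for 2 of the 9 receptors, which is below the 29.7% of all genes tested. The median log2 fold change of the 9 was -0.096, against -0.00089 for all genes tested. Log2 fold changes are given as Cre_positive over Cre_negative throughout.

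Tnfrsf12a (ENSMUSG00000023905, chromosome 17) encodes Fn14, the small receptor of the cytokine TWEAK, and had the largest change of the 9. It received 1920, 1746 and 1261 counts in replicates 1, 2 and 3 of Cre_negative, and 297, 511 and 463 in those of Cre_positive. In CPM these were 31.6, 31.2 and 22.4 against 5.57, 8.97 and 8.63. Every Cre_negative library lay above every Cre_positive one, with a gap from 22.4 down to 8.97 CPM between the genotypes. The mean went from 28.4 ± 5.21 to 7.72 ± 1.87 CPM (SD, n = 3), 0.272 times the Cre_negative level. On the log2 scale the change was -1.88 (SE 0.21, 95% confidence interval -2.36 to -1.40), with an adjusted p of 0.00214 (edgeR). Without any 1 library the fall remained past the threshold, with log2 fold changes of -2.02 to -1.69 and adjusted p up to 0.0152.

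Tnfrsf1a (ENSMUSG00000030341, chromosome 6) encodes TNFR1, the death domain receptor of TNF that most cell types carry. It stood at 134.1, 117.8 and 123.7 CPM in replicates 1, 2 and 3 of Cre_negative and at 93.0, 95.5 and 96.3 CPM in those of Cre_positive, from 4959 to 8145 counts per library. The genotypes did not overlap, and the Cre_positive libraries lay within 1.04-fold of each other. The mean went from 125.2 ± 8.25 to 94.9 ± 1.71 CPM (SD, n = 3), 0.758 times the Cre_negative level. This is a log2 change of -0.40 (SE 0.070, 95% confidence interval -0.56 to -0.24, adjusted p = 0.0127). The call ended when any 1 of the Cre_positive libraries was left out, at adjusted p = 0.0612 without replicate 1, 0.0582 without replicate 2 and 0.0649 without replicate 3, while the log2 fold change stayed between -0.44 and -0.35 whichever library was left out.

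**Figure D1:**
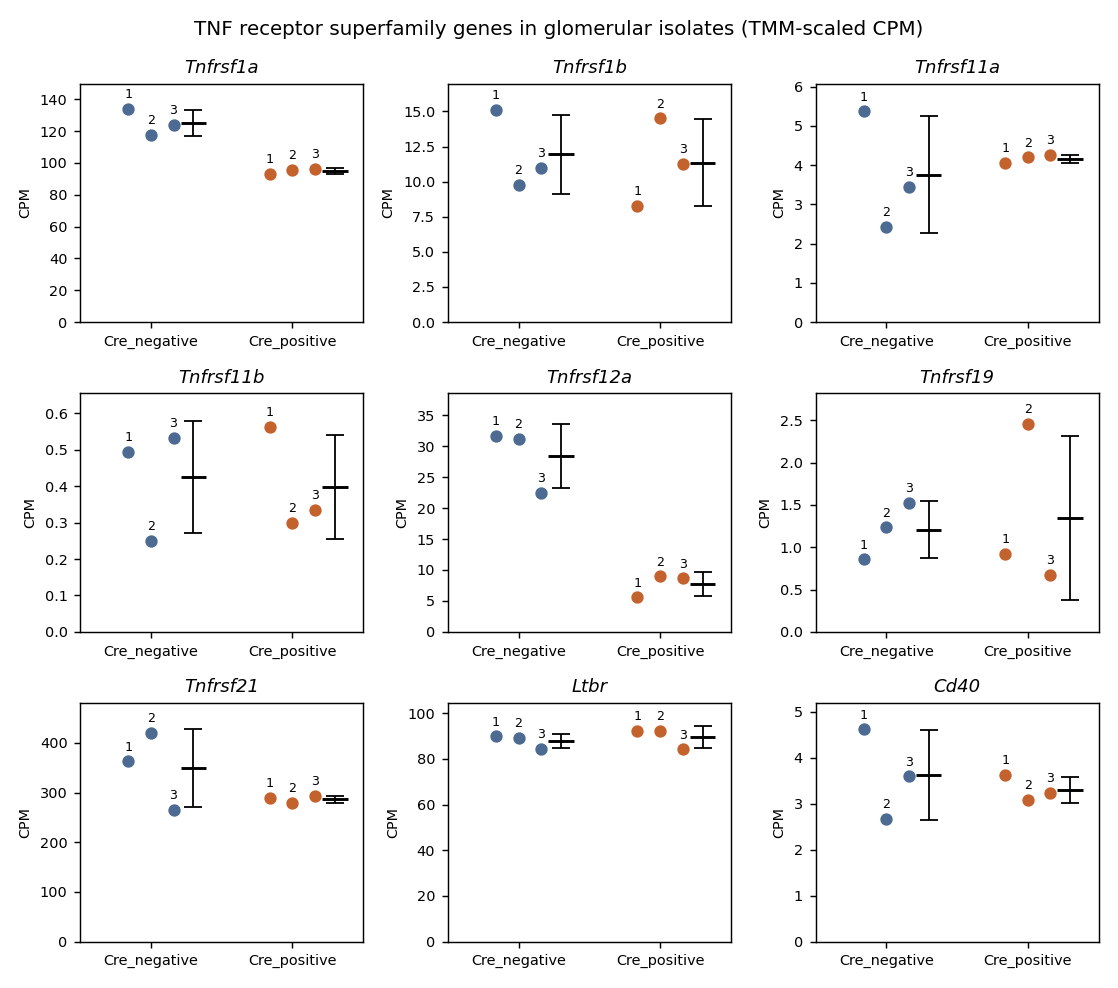
Level of each of the 9 receptor genes in TMM-scaled CPM (vertical axes, from 0) in the 6 libraries, with replicate numbers above the points and the mean ± SD of each genotype as a black bar. The libraries separate by genotype for Tnfrsf12a and Tnfrsf1a and overlap for the other 7 genes.

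Tnfrsf1b (ENSMUSG00000028599, chromosome 4) encodes TNFR2, which has no death domain and responds best to membrane-bound TNF. It had 917, 545 and 619 counts in replicates 1, 2 and 3 of Cre_negative and 442, 826 and 606 in those of Cre_positive. The genotypes overlapped, and their highest libraries were close, at 15.1 and 14.5 CPM. Its log2 fold change was -0.073 (SE 0.23, adjusted p = 0.892), and the 95% confidence interval of -0.60 to 0.46 also covers a change of the size of that in Tnfrsf1a.

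Tnfrsf21 (ENSMUSG00000023915, chromosome 17) encodes the death receptor DR6 and had the highest counts of the 9. It stood at 362.6, 420.6 and 265.7 CPM in replicates 1, 2 and 3 of Cre_negative and at 288.7, 278.7 and 292.5 CPM in those of Cre_positive. Cre_negative replicate 3 fell below all Cre_positive libraries, while the other 2 Cre_negative libraries lay above them. The change did not pass, at -0.29 on the log2 scale (SE 0.15, 95% confidence interval -0.63 to 0.054, adjusted p = 0.293). Without Cre_negative replicate 3 it was -0.45 and passed, with an adjusted p of 0.0176.

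Ltbr (ENSMUSG00000030339, chromosome 6) encodes the lymphotoxin beta receptor, which signals through NIK to the non-canonical NF-kB pathway. It stood at 89.8, 89.2 and 84.3 CPM in replicates 1, 2 and 3 of Cre_negative and at 92.4, 92.3 and 84.2 CPM in those of Cre_positive. The values were close in all 6 libraries, and the log2 fold change of 0.030 (SE 0.069, adjusted p = 0.843) had a 95% confidence interval of -0.13 to 0.19. That interval does not overlap the one of Tnfrsf1a, although the difference between these changes was not tested.

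Cd40 (ENSMUSG00000017652, chromosome 2) encodes the receptor of CD40 ligand on antigen-presenting cells. It had 280, 149 and 202 counts in Cre_negative and 193, 175 and 173 counts in Cre_positive replicates 1, 2 and 3. The Cre_negative libraries spread on both sides of the Cre_positive ones. The genotypes differed by -0.13 on the log2 scale (SE 0.25, 95% confidence interval -0.69 to 0.43, adjusted p = 0.800).

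Tnfrsf11a (ENSMUSG00000026321, chromosome 1) encodes RANK, and Tnfrsf11b (ENSMUSG00000063727, chromosome 15) encodes osteoprotegerin, the secreted decoy that captures the RANK ligand. Tnfrsf11a had 326, 136 and 194 counts in Cre_negative and 216, 239 and 228 counts in Cre_positive replicates 1, 2 and 3. Its Cre_negative values spread 2.21-fold in CPM and enclosed the Cre_positive ones, which spread 1.05-fold. Their log2 difference was 0.15 (SE 0.29, 95% confidence interval -0.50 to 0.80, adjusted p = 0.804). Tnfrsf11b had 30, 14 and 30 counts in Cre_negative and 30, 17 and 18 counts in Cre_positive replicates 1, 2 and 3. Its log2 fold change was -0.096 (SE 0.51, adjusted p = 0.938), and the 95% confidence interval of -1.26 to 1.07 is wide at this depth.

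Tnfrsf19 (ENSMUSG00000060548, chromosome 14) encodes TROY, a receptor linked to Wnt signalling in stem and progenitor cells. It had 52, 69 and 86 counts in Cre_negative and 49, 140 and 36 counts in Cre_positive replicates 1, 2 and 3. Cre_positive replicates 1 and 3 had the fewest counts. In CPM, however, Cre_positive replicate 1, at 0.919, lay above Cre_negative replicate 1, at 0.856. The highest of the 6 was Cre_positive replicate 2, the library low in Xist. The change was 0.16 on the log2 scale (SE 0.50, 95% confidence interval -0.97 to 1.30, adjusted p = 0.886), and -0.60 (adjusted p = 0.4996) without that library. In no sample did a member have 0 counts.

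**Figure D2:**
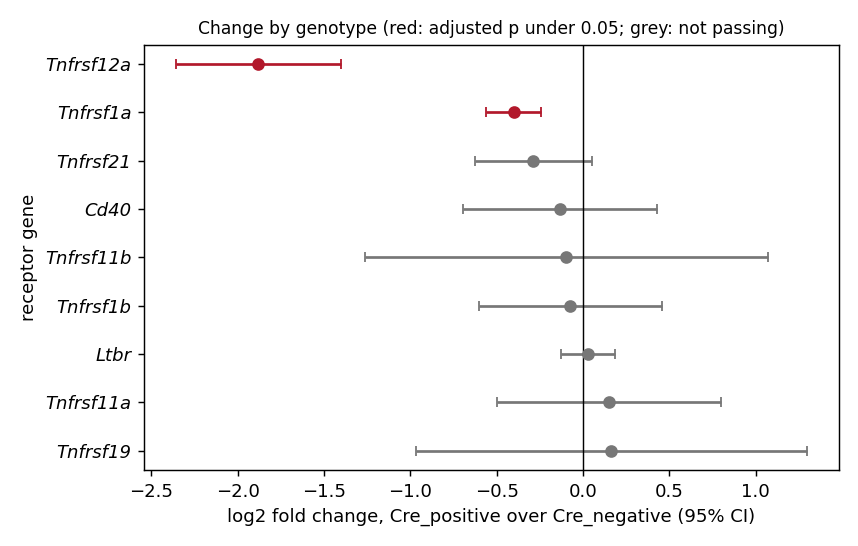
Log2 fold change of each of the 9 receptor genes (Cre_positive over Cre_negative, points) with its 95% confidence interval (bars). The intervals of Tnfrsf12a, -2.36 to -1.40, and Tnfrsf1a, -0.56 to -0.24, lie below 0, and the other 7 cover 0.

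The length-scaled levels (CPM per kilobase of merged exons in GENCODE M21) ranked the receptor genes. In Cre_negative libraries, Tnfrsf21 had a mean of 85.1 ± 19.0 CPM per kb, Tnfrsf1a 48.3 ± 3.19 and Ltbr 37.3 ± 1.28 (SD, n = 3). Tnfrsf12a followed at 14.7 ± 2.70 and Tnfrsf1b at 3.13 ± 0.732. Cd40 stood at 1.06 ± 0.285, Tnfrsf11a at 0.626 ± 0.249, Tnfrsf19 at 0.255 ± 0.0711 and Tnfrsf11b at 0.151 ± 0.0543. The neighbours Cd40 and Tnfrsf11a, and Tnfrsf19 and Tnfrsf11b, overlapped in their libraries, and the other neighbours in this order did not.

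In Cre_positive libraries Ltbr, at 38.1 ± 2.00 CPM per kb, stood above Tnfrsf1a, at 36.6 ± 0.658, although their libraries overlapped. Tnfrsf12a, at 4.00 ± 0.969 CPM per kb, overlapped with Tnfrsf1b, at 2.98 ± 0.814. The spread was unequal between the genotypes for some receptors: the coefficient of variation of Tnfrsf21 was 22.4% in Cre_negative and 2.48% in Cre_positive, and that of Tnfrsf11a was 39.7% and 2.46%. The exon lengths belong to GRCm38, while the submitters' notes name GRCm39, which makes the levels per kb approximate.

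**Figure D3:**
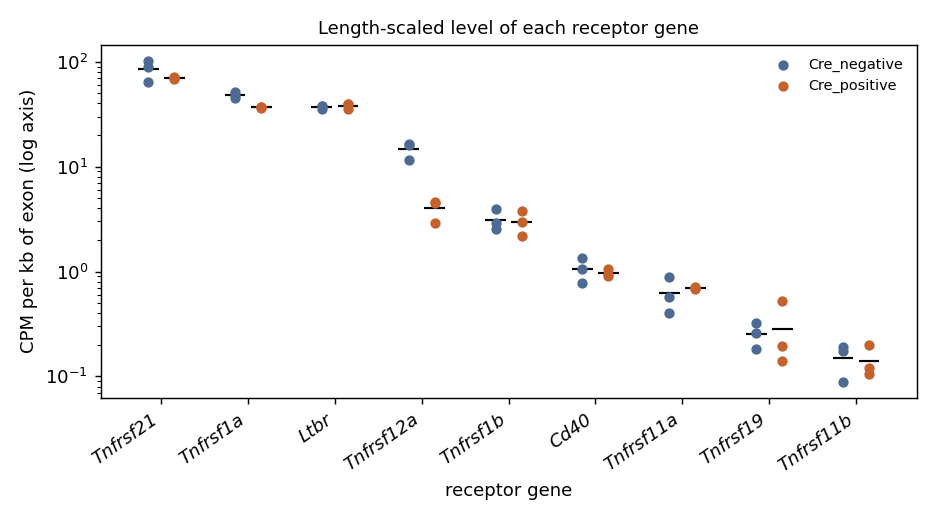
Length-scaled level of each receptor gene (CPM per kb of exon, log axis) in 3 Cre_negative and 3 Cre_positive libraries, points, with genotype means as black lines. Tnfrsf12a is 14.7 CPM per kb in Cre_negative and 4.00 in Cre_positive, where its libraries reach into the range of Tnfrsf1b.

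Across the 6 libraries, the log2 CPM of Tnfrsf12a and Tnfrsf1a had a Pearson r of 0.947, the highest of the 36 pairs of members. The next was 0.805, for Cd40 with Tnfrsf11b. These values describe 6 libraries that fall into genotypes, and pairs of genes that fell in the same genotype are bound to correlate. Among 12696 genes with an assigned symbol and a mean log2 CPM of at least 1, the patterns most like that of Tnfrsf1a included those of Tapbp (r = 0.999) and Rap2b (0.997). The patterns most like that of Tnfrsf12a were those of Dusp5 (0.998), Aaas (0.996) and Zfp185 (0.996).

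Among the ligand genes of these receptors, Tnfsf12 and Tnfsf10 had the highest counts, and the others had few. Tnfsf12, which encodes TWEAK, had 1327, 1138 and 1261 counts in Cre_negative and 1286, 1629 and 1274 counts in Cre_positive replicates 1, 2 and 3. In CPM every Cre_positive library lay above the Cre_negative ones, at 21.5 ± 1.06 against 25.5 ± 2.70 (SD, n = 3), but the change of 0.24 on the log2 scale (SE 0.10) did not pass (adjusted p = 0.196). Tnfsf10, which encodes TRAIL, a ligand that osteoprotegerin also binds, had 2410 to 2987 counts per library. Its mean went from 46.7 ± 3.15 to 48.1 ± 2.00 CPM (SD, n = 3), and the log2 fold change of 0.044 (SE 0.079) did not pass (adjusted p = 0.789). Per length, Tnfsf12 was the higher of the pair, at a Cre_negative mean of 14.2 ± 0.698 CPM per kb against 8.86 ± 0.599. Tnfsf10 was named after its values were seen. Tnf had 41, 21 and 20 counts in Cre_negative and 9, 10 and 16 counts in Cre_positive libraries, which did not overlap, and its log2 fold change of -1.13 (SE 0.54) did not pass either (adjusted p = 0.253). Ltb, a lymphotoxin subunit, had 8 to 117 counts per library (log2 fold change 0.39, SE 0.71, adjusted p = 0.798). Tnfsf14, which encodes LIGHT, another ligand of the lymphotoxin beta receptor, had 8 to 30 counts (log2 fold change -0.097, SE 0.63, adjusted p = 0.949). Lta had 0 to 12 counts, Cd40lg 0 to 12 and Tnfsf11, the RANK ligand gene, 0 to 4, too few for testing. Of 18 ligand genes, 10 were tested and 0 passed with edgeR, DESeq2 or limma voom. At an unadjusted p under 0.05, edgeR had 1 lower and 1 higher ligand, and their median log2 fold change was 0.0030.

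Among the other receptors of the superfamily, 3 of 16 tested fell, 0 rose and 13 did not pass, with a median log2 fold change of -0.24. Eda2r, an ectodysplasin receptor, changed by -5.29 (SE 0.22, adjusted p = 1.04e-05) on the log2 scale. The TRAIL receptor gene Tnfrsf10b changed by -1.46 (SE 0.20, adjusted p = 0.00447), and the death receptor gene Fas by -0.69 (SE 0.14, adjusted p = 0.0187). All 3 are known p53 target genes, but a part of p53 in these falls was not tested. Fas lost its call whichever Cre_positive library was left out (adjusted p up to 0.0839).

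Genes that act on the shedding of TNF and its receptors moved in both directions. Of 6 tested, 1 fell, 1 rose and 4 did not pass. Adam17, the protease that releases TNF and its receptors from the cell surface, went from 46.4 ± 1.46 to 45.6 ± 0.361 CPM (SD, n = 3; log2 fold change -0.023, SE 0.068, adjusted p = 0.879). Rhbdf2, which encodes the partner iRhom2 that brings ADAM17 to the surface, changed by -0.54 (SE 0.094, adjusted p = 0.0125). Timp3, the inhibitor of ADAM17 in the extracellular matrix, changed by 0.63 (SE 0.12, adjusted p = 0.0148). Neither passed once Cre_positive replicate 2 or 3 was left out, with adjusted p values up to 0.0660 and 0.0771. Adam17 was named after its values were seen.

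Below the receptors, 4 of 29 genes for adaptors and proximal signalling fell, 0 rose and 25 did not pass, with a median log2 fold change of -0.14. The initiator caspase gene Casp8 changed by -0.58 (SE 0.10, adjusted p = 0.0133) and Map3k14, which encodes NIK, by -0.49 (SE 0.10, adjusted p = 0.0233). Mlkl, the effector of necroptosis, changed by -1.14 (SE 0.25, adjusted p = 0.0275), and Birc3, an inhibitor of apoptosis that TNF induces, by -0.83 (SE 0.18, adjusted p = 0.0310). The direct TNFR1 partners Tradd, at 0.19 (SE 0.12), and Ripk1, at 0.042 (SE 0.079), did not pass (adjusted p = 0.411 and 0.801) and were named after their values were seen. Of 9 NF-kB subunits and inhibitors, 3 fell, 0 rose and 6 did not pass, with a median of -0.37. The 3 were the non-canonical subunits Nfkb2, at -0.68 (SE 0.12, adjusted p = 0.0146), and Relb, at -0.94 (SE 0.20, adjusted p = 0.0240), and the NF-kB cofactor Bcl3, at -1.09 (SE 0.25, adjusted p = 0.0315).

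Of 18 genes that TNF is known to induce, 8 fell, 1 rose and 9 did not pass, and the median log2 fold change was -1.05, also with Ccl20 at its bound. The chemokine gene Cxcl10 changed by -2.36 (SE 0.24, adjusted p = 0.00168), the neutrophil chemokine gene Cxcl1 by -4.24 (SE 0.53, adjusted p = 0.00401) and the macrophage growth factor Csf1 by -0.75 (SE 0.12, adjusted p = 0.00963). Ccl20, another chemokine, had 32, 28 and 26 counts in Cre_negative and 0 counts in all Cre_positive libraries, at least 9.04-fold lower against a floor of 3 counts per library. The single rise was Tnfaip2, at 0.67 (SE 0.13, adjusted p = 0.0171), named after its values were seen. It lost its call without Cre_negative replicate 2 (adjusted p = 0.0547) and without Cre_positive replicate 3 (0.0758). Map3k14, Mlkl, Birc3, Nfkb2, Relb and Bcl3 lost their calls whichever Cre_positive library was left out (adjusted p up to 0.127). Those of Casp8 and Csf1 ended without Cre_positive replicate 2 or 3 (up to 0.0637 and 0.0534). Mlkl and Bcl3 also lost theirs without Cre_negative replicate 1, and Map3k14 without Cre_negative replicate 2. Among the other TNF-induced genes that fell, Icam1 lost its call whichever Cre_positive library was left out (adjusted p up to 0.1025). Ccl2 lost its call without Cre_negative replicate 1 and without Cre_positive replicate 2 or 3 (up to 0.116). C3 did so without replicate 1 or 2 of either genotype (up to 0.0885). Cxcl10, Cxcl1 and Ccl20 kept theirs whichever library was left out. Icam1, Ccl2 and C3 were named after their values were seen. Birc3 and Tnfaip3 belong to both the adaptor and the TNF-induced lists, Nfkbia to the NF-kB and the TNF-induced lists, and Lcn2 and Vcam1 to the TNF-induced and the injured tubule lists.

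**Figure D4:**
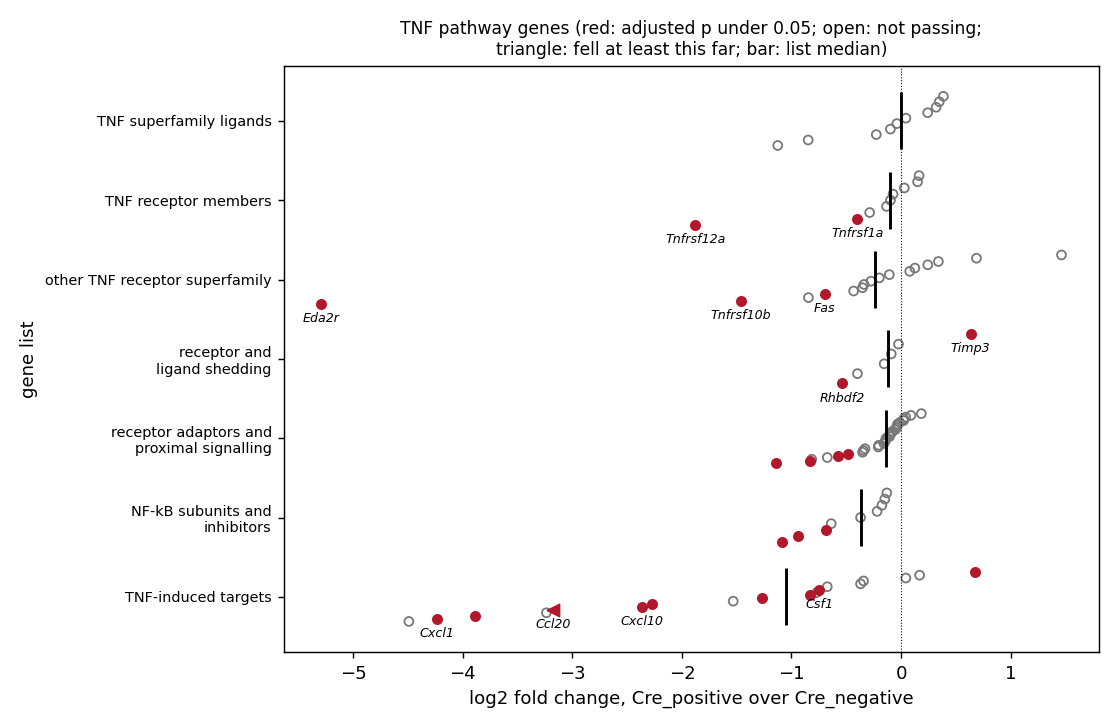
Log2 fold change (Cre_positive over Cre_negative) of every tested gene of 7 TNF pathway lists, filled where the adjusted p was under 0.05, with list medians as bars and Ccl20 as a triangle at its bound. Of these 7 lists, the TNF-induced targets have the lowest median, -1.05, and the ligands one of 0.0030.

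Markers of other cell types differed between the genotypes beside the receptor genes. Of 10 markers of injured tubule and parietal cells, 5 fell, 0 rose and 5 did not pass, with a median log2 fold change of -1.61. This median lay below the -1.05 of the TNF-induced targets, which share Lcn2 and Vcam1 with this list. The summed level of the 10 markers was 420 to 949 CPM in Cre_negative and 280 to 332 CPM in Cre_positive libraries, and was highest in Cre_negative replicate 1. Of 10 macrophage and dendritic cell markers, 1 fell (5 with DESeq2) and 9 did not pass, with sums of 149.6 to 287.7 and 159.4 to 169.8 CPM. At an unadjusted p under 0.05, edgeR had 6 of them lower and 0 higher, and their median log2 fold change was -0.88. The highest sum was again that of Cre_negative replicate 1, and so it was for the lymphocyte markers. This library also had the highest levels of Tnfrsf1a, Tnfrsf1b, Tnfrsf11a, Tnfrsf12a and Cd40. For Tnfrsf12a, Cre_negative replicate 2 was close, at 31.2 against 31.6 CPM. Of 10 lymphocyte markers 0 passed with edgeR (2 higher at an unadjusted p under 0.05, 2 higher with DESeq2 and 1 with limma voom), with sums of 17.8 to 39.7 and 28.0 to 35.6 CPM. Their median log2 fold change was 0.51.

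Some markers of resident kidney cells rose. Of 10 podocyte markers 3 rose, of 8 glomerular endothelial markers 6, of 6 mesangial markers 3, of 9 proximal tubule markers 5 and of 7 loop and distal tubule markers 4, and 0 fell in these 5 lists (1 proximal tubule marker fell with DESeq2 and with limma voom). The other 7, 2, 3, 4 and 3 markers, in the same order, did not pass. The median log2 fold changes of the 5 lists were 0.29, 0.60, 0.49, 0.62 and 0.50, also in that order. The summed level of the endothelial markers was 552 to 674 CPM in Cre_negative and 824 to 894 in Cre_positive libraries, and that of the mesangial markers 128.0 to 147.1 and 201.7 to 219.7. The loop and distal tubule markers summed to 5946 to 7272 and 9469 to 10078 CPM. For the podocyte markers the sums were 518 to 594 CPM in Cre_negative and 714 to 810 in Cre_positive libraries. Those of the proximal tubule markers were 7680 to 9149 and 11755 to 12868 CPM, in the same order. No marker of these 7 lists had 0 counts in any library, and among the lymphocyte markers Ms4a1 alone did. The part of any of these cell types in the falls of Tnfrsf12a and Tnfrsf1a was not tested.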

How the data were processed

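Per the labels' protocols, polyadenylated RNA of isolated glomeruli was made into strand-marked (dUTP) libraries and sequenced as read pairs. GRCm39 is the build in the submitters' processing notes, which list fastp, HISAT2, StringTie and edgeR with no version or role. The authors deposited raw whole-number counts per Ensembl gene, 1 column per sample. Annotation, strand setting and handling of multi-mapped reads are not given in the sources consulted. StringTie can derive counts from coverage, so very low counts are uncertain. In GENCODE M21 (GRCm38) no other gene shares an exon base with any of the 9 members. Symbols came from a table that covered 51880 of the 57132 rows.

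The deposited counts were fitted unchanged in edgeR 4.0.16 (R 4.3.3), with filterByExpr, TMM factors (0.979 to 1.03), and the quasi-likelihood test with robust=TRUE on all 6 samples. P-values were adjusted by Benjamini-Hochberg over the 19927 genes tested, at a threshold of 0.05. Each SE was derived from the log2 fold change and its F statistic. Log2 CPM used a prior count of 2. The biological coefficient of variation was 21.5%. Over genes with at least 50 counts, every pair of libraries differed by a chi-square of at least 20.6 per degree of freedom, more than sampling noise gives. Floors of 3 counts and count-based bounds cover counting error only.

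The 9 members, the gene lists and the rule for named genes were chosen with earlier results of these data known. The rule named all members, their ligands, of each list the up to 4 passing genes of smallest p, and the 3 genes most correlated with each member that passed. Some genes that the rule takes are left out of the text. Lists are described by counts and medians only. On simulated counts for Cre_positive against Cre_negative (19422 genes), the test called 31.8% of 66 genes changed 1.5-fold, 53.8% of 65 at 2-fold and 79.7% of 64 at 4-fold. Of its calls, 10.8% were unchanged genes, above the nominal level. Fewer genes were changed there than passed in the data, so this share does not give the error rate of the calls in the data. The other settings were DESeq2 1.42.0, limma 3.58.1 voom with quality weights, other size factors and filters, robust=FALSE, a replicate block and each library left out.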

Additional observations from a re-analysis of the deposited data

How the results depend on the processing

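Tnfrsf12a passed with a negative log2 fold change under all 14 other settings, from -2.02 to -1.69. Tnfrsf1a passed under 11 of 14 and lost its call only when a Cre_positive library was left out. The count of members changed was 1 to 3 when single libraries were left out and 2 under all other settings. The count of all genes changed was 462 to 2039 when single libraries were left out, 700, 605 and 462 of them without Cre_positive replicates 1, 2 and 3, and 2697 with DESeq2 against 1505. With single libraries left out, the log2 fold change crossed 0 for Tnfrsf1b (-0.29 to 0.13), Tnfrsf11a (-0.086 to 0.50), Tnfrsf11b (-0.42 to 0.095), Tnfrsf19 (-0.60 to 0.49) and Cd40 (-0.31 to 0.080), none of which passed under any setting. For Tnfrsf19 it was -0.15 with limma voom. The cause of these moves was not tested. Tnfrsf11b, at 14 to 30 counts, was not tested under the filter of 1 CPM in 3 samples.

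The labels do not say that equal replicate numbers share a mouse or a day. With the replicate block, 1541 genes and 2 members passed, and the log2 fold change of Tnfrsf19 was -0.0066. The deviations of same-numbered libraries correlated at 0.0547, 0.0551 and 0.0173. Each library correlated best with its own number, but for Cre_negative replicate 3 only at 0.0173 against 0.0170 with Cre_positive replicate 2. These correlations are near 0 and do not establish a shared mouse or day. Bcl3 had an adjusted p of 0.0598 with the block, Icam1 0.0534 and C3 0.114.

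Among the gene lists, DESeq2 called as lower 7 adaptors (4 in edgeR), 4 NF-kB genes (3), 10 TNF-induced targets (8), 2 shedding genes (1), 7 injured tubule markers (5) and 5 macrophage markers (1). It called as higher 5 podocyte markers (3), 6 proximal tubule markers (5) and 2 lymphocyte markers (0). With limma voom, 3 injured tubule markers were lower, and 6 proximal tubule markers and 1 lymphocyte marker were higher.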
